A study of Homo sapiens with 6 samples.

Results

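Collagens, laminins and integrins are the structural proteins of the extracellular matrix and the receptors through which cells hold on to it. RNA was examined for 54 genes of these families, chosen by symbol and by measured level, as the genes with 100 or more read counts summed over all 6 libraries of the series. That sum, and no comparison between groups, selected the members. They comprise 27 collagen genes, 8 laminin genes and 19 integrin genes, of which 13 encode alpha and 6 encode beta chains. The count table holds 35322 gene symbols, 82 of them collagen, laminin or integrin genes at any count, and 28 of these 82 lay under the limit. The cells were 22Rv1, an established human prostate carcinoma line. The 2 control libraries carry the genotype label WT, and 2 libraries each come from a first (ZM11-kd1) and a second (ZM11-kd2) knockdown of ZMYND11, a reader protein of methylated histone H3.3. Libraries were made from extracted total RNA of cells given no treatment, after poly(A) selection or rRNA removal. The study describes stable lentiviral shRNAs against ZMYND11 and control shRNAs, while the labels call the controls WT, and the shRNA behind each knockdown is not given in the sources used here.

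Collagens are trimers of alpha chains. Fibrillar collagens form the tension-bearing fibers of tissues, collagen IV forms the sheet of the basement membrane, and other classes coat fibrils, anchor the basement membrane or span the plasma membrane. Laminins are heterotrimers of an alpha, a beta and a gamma chain that build the basement membrane together with collagen IV. Integrins are pairs of an alpha and a beta chain, and the pair sets whether a cell binds collagen, laminin, or the RGD motif of proteins such as fibronectin and vitronectin. In the normal prostate, basal epithelial cells rest on the laminin-rich basement membrane, and prostate carcinoma is known for loss of several laminin and integrin chains.

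Total counts were 26844128 and 27639713 in the control libraries and between 33760573 and 38193748 in the 4 knockdown libraries. The 54 genes took 0.226% and 0.223% of all counts in the control libraries, 0.150% and 0.145% in ZM11-kd1, and 0.156% and 0.173% in ZM11-kd2. ZMYND11 itself had 4283 and 4179 counts in control, 941 and 773 in ZM11-kd1, and 770 and 779 in ZM11-kd2. All 11 luminal and epithelial prostate markers were measured above the filter, and of 6 neuroendocrine markers 3 stayed under 1 CPM in every library, with summed levels of 251 to 263 CPM in control, 302 to 306 in ZM11-kd1 and 186 to 199 in ZM11-kd2 that were mostly SYP and ENO2. Of 11 fibroblast and smooth muscle markers, 7 stayed under 1 CPM in every library, and the summed level of that list (16.8 to 18.9 CPM in control, 75.5 to 83.0 in ZM11-kd1, 40.2 to 43.5 in ZM11-kd2) moved mainly with VIM, which rose from 5.97 to 65.7 and 22.3 CPM. THY1, PDGFRA, FAP and POSTN stayed under 1 CPM in all 6 libraries. Of the 6 tested markers of that list, 1 was called higher and 0 lower in ZM11-kd1, and 3 higher and 1 lower in ZM11-kd2. Of all genes, 38.2% were called higher and 39.8% lower in ZM11-kd1, and 36.5% and 36.9% in ZM11-kd2. Summed levels of 5 basal markers were 1.48 to 2.596 CPM in control, 5.86 to 6.05 in ZM11-kd1 and 1.76 to 2.01 in ZM11-kd2, and those of 6 endothelial markers were at most 2.58. The summed levels of 8 leukocyte markers were 3.06 to 3.32 CPM in control, 2.77 to 3.39 in ZM11-kd1 and 4.12 to 4.98 in ZM11-kd2, and 6 of the 8 stayed under 1 CPM in every library. KDR and CD3E had no counts. CPM, the counts scaled to a common library size, were computed with the TMM factors of edgeR throughout, and a level per length is CPM per kb of exonic sequence. Exonic sequence holds every annotated exon of a gene over all its transcripts (14561 bases for ITGB1, 4215 for COL9A2). It can exceed any 1 transcript, so ranks and shares between genes are rough. Where a member is said to have risen, fallen or been called, its adjusted p was under 0.05 by edgeR's quasi-likelihood test, with Benjamini-Hochberg adjustment over 16510 genes. Nothing says whether libraries of a group came from separate cultures, so p-values measure the spread between these libraries, which may be technical.

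Most of the 54 genes differed from control in each knockdown, as most genes of these libraries did, and the falls outnumbered the rises, except in ZM11-kd1 after a correction for gene length and GC content (21 higher and 20 lower). In ZM11-kd1, 45 of 54 were called against 78.0% of all genes tested, with 19 higher (38.2% of all genes) and 26 lower (39.8% of all genes). In ZM11-kd2, 42 were called against 73.4% of all genes, with 11 higher (36.5% of all genes) and 31 lower (36.9% of all genes). Between the knockdowns 37 were called against 68.8% of all genes, and 10 were higher (34.9% of all genes) and 27 lower (33.8% of all genes) in ZM11-kd2 than in ZM11-kd1. The shares of members called at all thus lay near those of all genes, while the share called lower in ZM11-kd2 was 57.4% of the members. The median log2 fold change of the members was -0.37 in ZM11-kd1 and -0.68 in ZM11-kd2, and that of all genes was -0.03 in both. By family, the medians in ZM11-kd1 and ZM11-kd2 were -0.39 and -0.69 for collagens, -0.28 and -1.14 for laminins, and -0.35 and -0.35 for integrins. These family medians moved with the processing, and after a correction for gene length and GC content the integrin median in ZM11-kd1 was 0.07 and the laminin median -0.05.

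The knockdowns moved many of the same genes, but they share their control libraries, so the counts below are given side by side and not as support for one another. Called higher in both were 9 members against 25.6% of all genes, called lower in both were 22 against 27.0% of all genes, and 6 were called in opposite ways against 9.10% of all genes. The 9 that rose in both were COL1A1, COL5A2, COL11A2, COL4A2, COL20A1, LAMB2, ITGA3, ITGA5 and ITGB5, of which COL20A1 passed the filter on low counts through the knockdown libraries alone. The remaining members were called in 1 knockdown only (13 genes) or in neither (COL26A1, LAMC1, ITGB2 and ITGB6). Of the 16510 genes tested, 4630 were called in 1 knockdown only and 1695 in neither. All 54 passed the filter on low counts, but COL21A1, ITGB6 and LAMC3 passed through 1 group alone (control) and 6 others through 2 groups. These were COL20A1 (both knockdowns), COL4A4, COL25A1 and ITGA9 (control and ZM11-kd2), and COL6A2 and ITGA4 (control and ZM11-kd1). In each remaining group at least 1 library lay under the filter, so a fall called there for a gene of these 9 is partly set by how it entered the test. Without COL21A1, ITGB6 and LAMC3, 24 of 51 members were called lower in ZM11-kd1, 29 in ZM11-kd2 and 20 in both. Of all genes, 39.8%, 36.9% and 27.0% were. The 24 and 29 still hold falls in groups that did not admit the gene. These are COL4A4, COL25A1 and ITGA9 in ZM11-kd1, and COL6A2 and ITGA4 in ZM11-kd2. Just inside the limit of 100 counts were ITGB6 (116 counts in all), COL20A1 (122) and LAMC3 (132), and just outside were ITGB7 (99), LAMA4 (97) and LAMB4 (96).

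**Figure D1:**
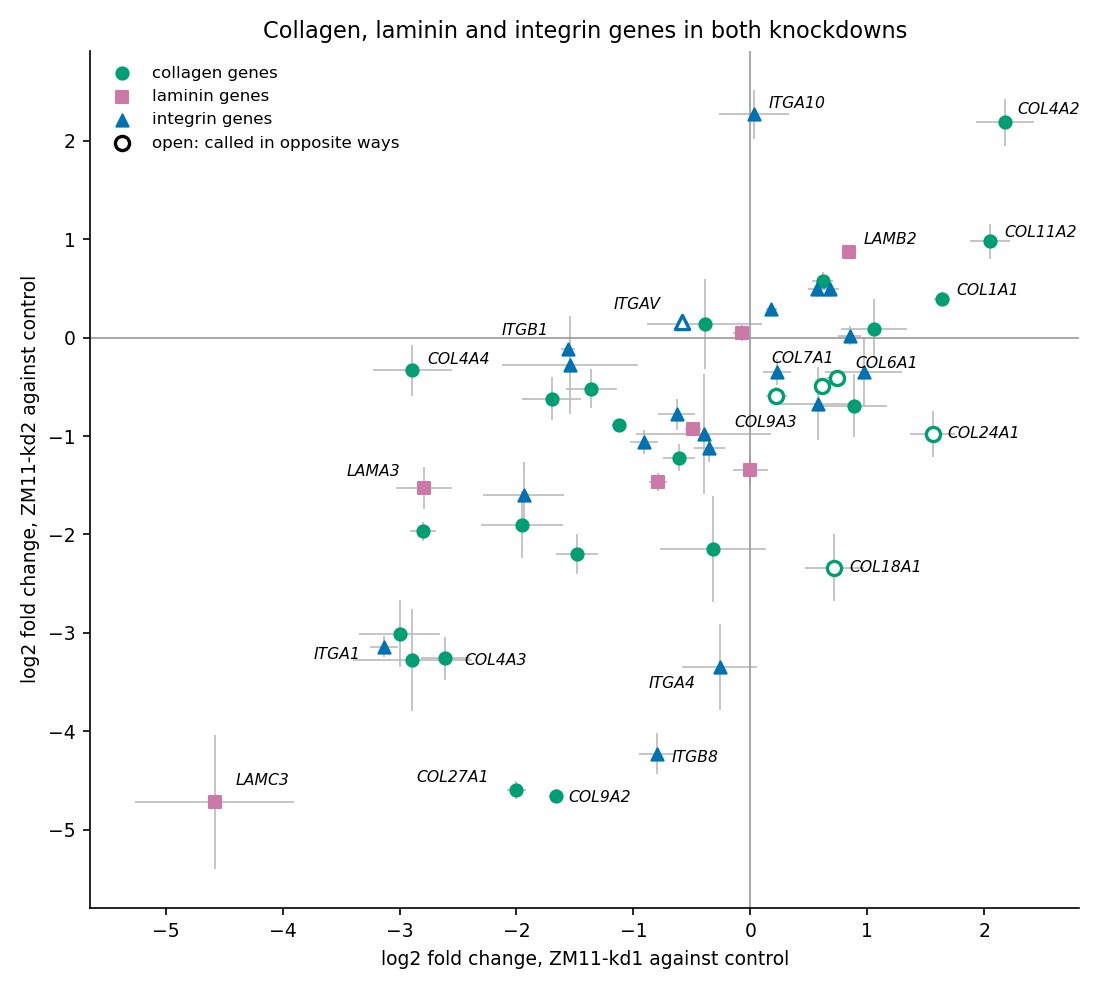
Each point is 1 of 52 collagen (circles), laminin (squares) or integrin (triangles) genes, with its log2 fold change against control in ZM11-kd1 on the horizontal and in ZM11-kd2 on the vertical axis, and gray bars give the standard errors. COL9A2 and COL27A1 lie far down and left of 0, COL4A2 lies at 2.18 and 2.19, and the open symbols are the 6 genes called in opposite ways; COL20A1, with 0 counts in control, is not drawn.

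Collagen IV, the basement membrane collagen, is encoded by gene pairs that lie head to head and are read in opposite directions from a shared stretch between their start sites. The pairs are COL4A1 with COL4A2 on chromosome 13, COL4A3 with COL4A4 on chromosome 2, and COL4A5 with COL4A6 on the X chromosome. The stretches next to the start site of the plus-strand gene are shown because the RNA of the paired genes can be set against the promoter they share. They are from RefSeq on GRCh38.p14, printed 5′ to 3′ on the plus strand, and capitals mark each CCAAT box (letters CCAAT) and GC box (letters GGGCGG) found on either strand, none of which overlap.
COL4A1/COL4A2, chr13:110307158-110307283: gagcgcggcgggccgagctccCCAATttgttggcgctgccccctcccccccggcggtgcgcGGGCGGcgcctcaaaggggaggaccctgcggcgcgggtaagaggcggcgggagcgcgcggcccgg
COL4A4/COL4A3, chr2:227164454-227164623: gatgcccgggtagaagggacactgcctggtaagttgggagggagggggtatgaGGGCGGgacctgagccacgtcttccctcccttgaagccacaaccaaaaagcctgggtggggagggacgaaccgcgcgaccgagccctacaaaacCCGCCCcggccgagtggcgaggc
COL4A6/COL4A5, chrX:108439588-108439837: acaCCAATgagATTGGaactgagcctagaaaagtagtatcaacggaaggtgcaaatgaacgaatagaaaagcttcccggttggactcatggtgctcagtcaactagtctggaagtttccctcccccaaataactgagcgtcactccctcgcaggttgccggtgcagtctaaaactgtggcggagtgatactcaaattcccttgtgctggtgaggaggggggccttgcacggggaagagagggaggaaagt
The start sites of the pairs lie 127, 419 and 380 bases apart. The stretch of COL4A1/COL4A2 holds 1 CCAAT box and 1 GC box, that of COL4A4/COL4A3 holds 2 GC boxes, and that of COL4A6/COL4A5 holds 2 CCAAT boxes. None of them holds the TATA box letters TATAAA. Among 35116 RefSeq promoters, the 250 bases before the start site held a CCAAT box in 32.0%, a GC box in 42.6% and a TATA box in 10.7%. These are matches of letters only, and the stretches of the first and the second pair are shorter than that window.

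Of the 5 collagen IV chains, 4 fell in ZM11-kd1 and COL4A2 rose, and in ZM11-kd2 3 fell, COL4A2 rose and COL4A4 was not called. COL4A5 (chromosome X, 108439838 to 108697545), whose chain joins either the network of the kidney filter or that of epithelial basement membranes, had the highest level per length of the collagen IV genes. It stood at 102.2 and 107.4 CPM in control, 49.1 and 47.5 in ZM11-kd1, and 54.5 and 58.7 in ZM11-kd2, so that both knockdowns lay below both controls. The log2 fold changes were -1.12 ± 0.06 (SE, edgeR adjusted p = 5.27e-10) and -0.89 ± 0.06 (SE, edgeR adjusted p = 8.86e-09). Its neighbor COL4A6 was at 3.65 and 4.12 CPM in control, 1.41 and 1.62 in ZM11-kd1, and 2.827 and 2.598 in ZM11-kd2. COL4A6 fell by 1.36 on the log2 scale in ZM11-kd1 and by 0.52 in ZM11-kd2, but the latter call was lost without control replicate 1 (-0.60, edgeR adjusted p = 0.059), without control replicate 2 (-0.43, edgeR adjusted p = 0.188) and without ZM11-kd2 replicate 2 (-0.45, edgeR adjusted p = 0.112). It went to -0.24 after the length and GC correction (edgeR adjusted p = 0.303), and was lost with the DESeq2 Wald test and with the replicate block too. The log2 ratio of COL4A5 to COL4A6 counts was 4.81 and 4.70 in control, 5.12 and 4.87 in ZM11-kd1, and 4.27 and 4.50 in ZM11-kd2, a description with no test. Between the knockdowns, COL4A5 was higher in ZM11-kd2 by 0.23, a difference that went to 0.01 after the length and GC correction (edgeR adjusted p = 0.85) and whose call was lost without ZM11-kd1 replicate 2 (0.21, edgeR adjusted p = 0.0547).

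COL4A3 and COL4A4, whose chains assemble together in specialized basement membranes, parted in the second knockdown. COL4A3 was at 10.5 and 10.1 CPM in control, 1.30 and 2.09 in ZM11-kd1, and 0.980 and 1.17 in ZM11-kd2. COL4A4 was at 2.73 and 2.67 CPM in control, 0.412 and 0.304 in ZM11-kd1, and 2.52 and 1.78 in ZM11-kd2. Both genes were therefore low in ZM11-kd1, whereas in ZM11-kd2 only COL4A3 was far below its control level. COL4A3 fell by 2.61 ± 0.21 (SE) and 3.26 ± 0.22 (SE) on the log2 scale, and COL4A4 fell by 2.89 ± 0.34 (SE) in ZM11-kd1 but had a log2 fold change of -0.33 ± 0.26 (SE, edgeR adjusted p = 0.266) in ZM11-kd2. The difference between the knockdowns was 2.56 ± 0.35 on the log2 scale (SE) for COL4A4, which passed the filter through control and ZM11-kd2 alone, so that its low level in ZM11-kd1 lay outside the groups that admitted it. The log2 ratio of COL4A3 to COL4A4 counts was 1.95 and 1.91 in control, 1.65 and 2.78 in ZM11-kd1, and -1.36 and -0.61 in ZM11-kd2, which is given as a description with no test. Exons of the opposite-strand gene MFF-DT cover 6.82% of the exonic length of COL4A3. The use of strand in counting is not given in the sources used here, so reads of MFF-DT (53 and 44, 54 and 45, 108 and 72 counts in control, ZM11-kd1 and ZM11-kd2) cannot be told apart from those of COL4A3 there.

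COL4A2 rose in both knockdowns although its partner was nearly absent. COL4A2 was at 0.756 and 0.805 CPM in control, 3.503 and 3.614 in ZM11-kd1, and 3.75 and 3.39 in ZM11-kd2. All 4 knockdown libraries lay more than 4 times above the controls, with log2 fold changes of 2.18 ± 0.25 (SE, edgeR adjusted p = 1.22e-06) and 2.19 ± 0.24 (SE, edgeR adjusted p = 1.41e-06). COL4A1, which encodes the chain that normally trimerizes with that of COL4A2, had 2 and 1 counts in the controls and 0 in every knockdown library, and it is not among the 54.

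**Figure D2:**
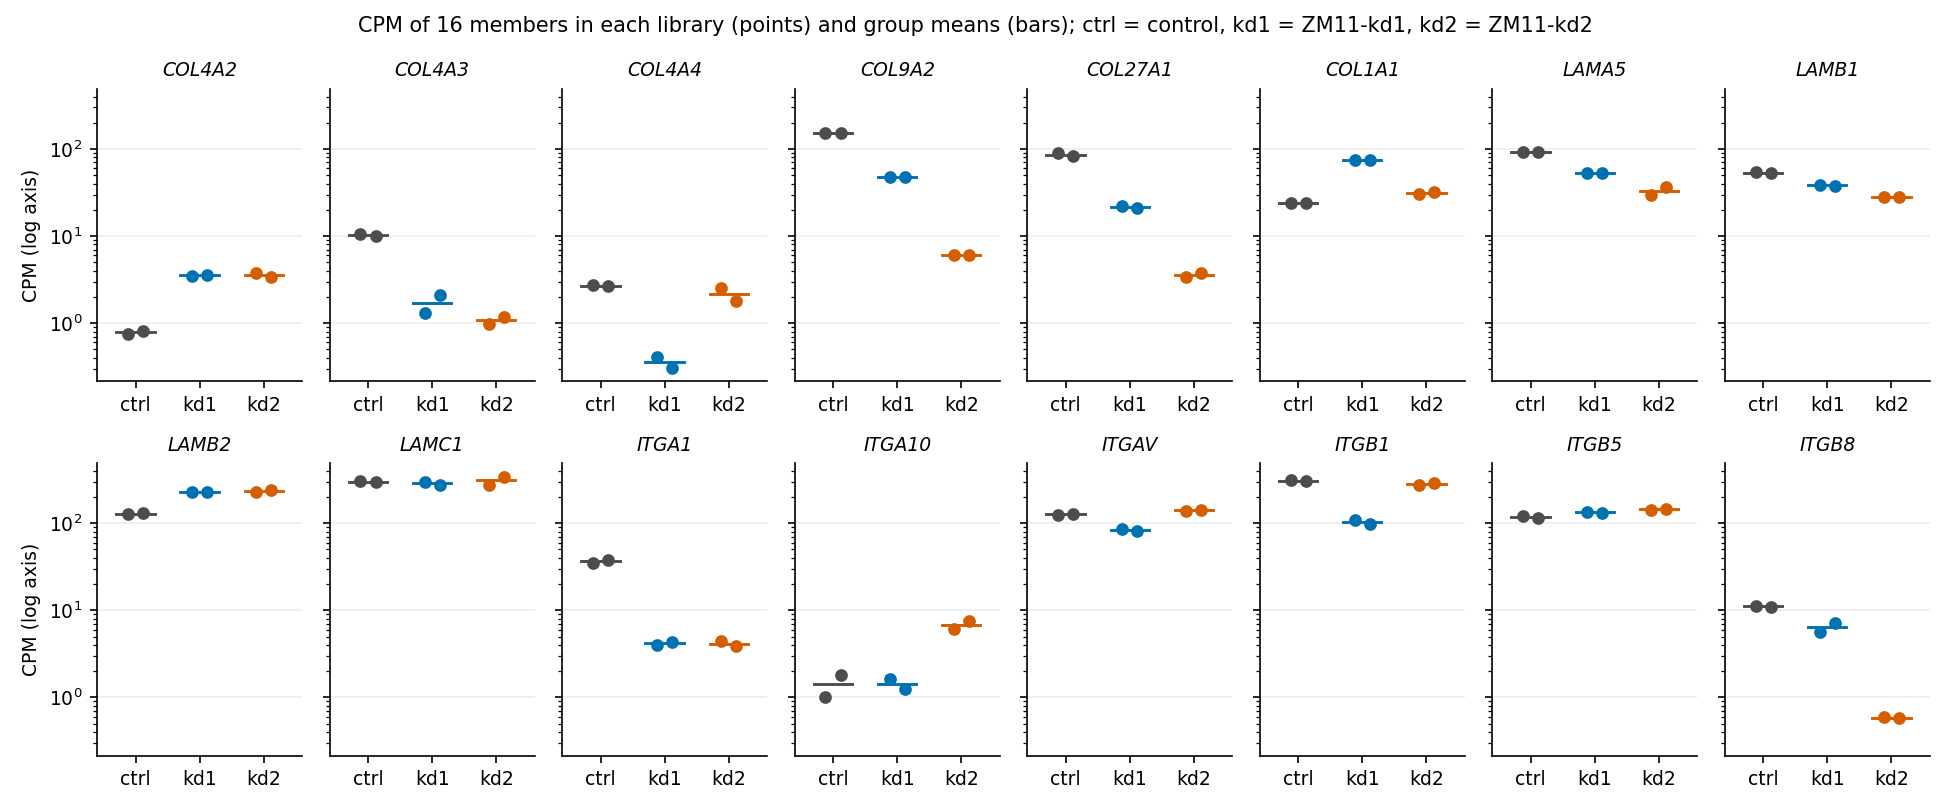
CPM of 16 members on a log axis, with 1 point per library and a bar at the mean of each group of 2 libraries; gray is control, blue ZM11-kd1 and orange ZM11-kd2. COL9A2 and COL27A1 step down from control to ZM11-kd1 to ZM11-kd2, COL4A4 and ITGB1 are low in ZM11-kd1 alone among the groups, and ITGB8 is low in ZM11-kd2.

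Among the fibrillar collagens, COL27A1, COL2A1 and COL5A1 fell and COL1A1, COL5A2 and COL11A2 rose in both knockdowns. COL27A1 (chromosome 9, 114155537 to 114312511), which encodes a chain of thin cartilage fibrils, was at 89.3 and 83.1 CPM in control, 22.2 and 21.0 in ZM11-kd1, and 3.39 and 3.74 in ZM11-kd2. The groups were far apart, with a 3.99-fold fall in ZM11-kd1 (edgeR adjusted p = 8.15e-12), a 24.2-fold fall in ZM11-kd2 (log2 fold change -4.60 ± 0.09, SE, edgeR adjusted p = 6.29e-14), and a 6.06-fold difference between the knockdowns. COL1A1, the main chain of collagen I, went the other way, from 23.9 and 23.8 CPM in control to 74.8 and 74.2 in ZM11-kd1 and 30.1 and 32.4 in ZM11-kd2. This was a 3.12-fold rise in ZM11-kd1 and a 1.31-fold rise in ZM11-kd2. COL1A2, the other chain of collagen I, stayed far lower, at 2 and 1 counts in control and 23, 18, 23 and 18 counts in the knockdown libraries. With 85 counts in all COL1A2 lay under the limit for the 54, and it passed the filter through the knockdown libraries alone, so that a higher level there was part of how it entered the test. COL2A1, the collagen of cartilage, was at 2.3 and 2.318 CPM in control, 0.706 and 0.473 in ZM11-kd1, and 0.504 and 0.730 in ZM11-kd2.

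The other fibrillar chains were those of collagens V, XI and XXIV. COL11A2 was at 3.12 and 2.93 CPM in control, 11.7 and 13.4 in ZM11-kd1, and 5.18 and 6.80 in ZM11-kd2, and its rises of 4.13-fold and 1.98-fold were the largest among the fibrillar genes of the 54 that rose in both knockdowns. COL5A2 rose 1.54-fold and 1.49-fold, while COL5A1, which encodes the chain that joins COL5A2 in collagen V, fell by 1.70 and 0.62 on the log2 scale. The call for COL5A1 in ZM11-kd2 was lost without control replicate 1 (-0.53, edgeR adjusted p = 0.13) and without ZM11-kd2 replicate 2 (-0.51, edgeR adjusted p = 0.0964). The change of COL5A1 was -0.24 after the length and GC correction (edgeR adjusted p = 0.335), and the DESeq2 Wald test did not call it. COL24A1 was called in opposite ways. It was at 2.497 and 2.318 CPM in control, 7.36 and 6.86 in ZM11-kd1, and 1.06 and 1.37 in ZM11-kd2, so that all ZM11-kd1 libraries lay above and all ZM11-kd2 libraries below the controls. The log2 fold changes of COL24A1 were 1.56 ± 0.19 (SE, edgeR adjusted p = 2.36e-06) and -0.98 ± 0.23 (SE, edgeR adjusted p = 0.00139), and both calls held in all 14 alternative settings.

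The FACIT collagens, which coat fibrils rather than forming them, held the steepest fall of the family. COL9A2 (chromosome 1, 40300489 to 40317813), a chain of collagen IX, was at 151.9 and 151.9 CPM in control, 48.0 and 48.2 in ZM11-kd1, and 5.99 and 6.04 in ZM11-kd2. It fell 3.16-fold in ZM11-kd1 (log2 fold change -1.66 ± 0.06, SE, edgeR adjusted p = 3.71e-12) and 25.2-fold in ZM11-kd2 (log2 fold change -4.66 ± 0.07, SE, edgeR adjusted p = 8.88e-15). Per length, COL9A2 had the highest level of all 54 genes in control, nearly tied with LAMC1 (36.03 and 35.61 CPM per kb). It stood at rank 5 in ZM11-kd1 and rank 18 in ZM11-kd2. COL9A3, which encodes another chain of collagen IX, was at 25.5 and 24.6 CPM in control, 27.4 and 30.9 in ZM11-kd1, and 17.7 and 15.6 in ZM11-kd2. It was called higher in ZM11-kd1 (0.22 ± 0.09, SE, edgeR adjusted p = 0.0409) and lower in ZM11-kd2 (-0.59 ± 0.09, SE, edgeR adjusted p = 6.09e-05). The call for COL9A3 in ZM11-kd1 was lost with the DESeq2 Wald test (0.23, adjusted p = 0.0837), with the replicate block (0.22, edgeR adjusted p = 0.064), with at least 10 counts in every library (0.18, edgeR adjusted p = 0.0934), without control replicate 1 (0.24, edgeR adjusted p = 0.101), without control replicate 2 (0.19, edgeR adjusted p = 0.183) and without ZM11-kd1 replicate 2 (0.13, edgeR adjusted p = 0.309), and it turned to -0.24 after the length and GC correction and to -0.14 with library totals alone. The log2 ratio of COL9A2 to COL9A3 counts was 2.58 and 2.63 in control, 0.81 and 0.64 in ZM11-kd1, and -1.56 and -1.37 in ZM11-kd2, a description chosen after the values were seen.

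COL9A1, the remaining chain of collagen IX, was called only in ZM11-kd1, where it rose by 1.06 ± 0.28 (SE). COL14A1 fell 6.98-fold in ZM11-kd1 and 3.92-fold in ZM11-kd2, and COL16A1 fell 2.78-fold and 4.58-fold. COL21A1 had 50 and 81 counts in control, 7 and 11 in ZM11-kd1, and 3 and 12 in ZM11-kd2, and since it passed the filter through its control libraries alone, a lower level in the knockdowns was part of how it entered the test. COL12A1 was called higher in ZM11-kd1 (0.89, edgeR adjusted p = 0.0102), a call lost without control replicate 1 (0.71, edgeR adjusted p = 0.0901) or ZM11-kd1 replicate 1 (0.78, edgeR adjusted p = 0.0656), and with library totals alone (0.53, edgeR adjusted p = 0.0982). In ZM11-kd2 its log2 fold change was -0.69 (edgeR adjusted p = 0.0629), and without ZM11-kd2 replicate 2 it was -1.11 and called lower, as it was in 3 other settings. COL20A1 had no counts in either control library, 15 and 11 in ZM11-kd1, and 56 and 40 in ZM11-kd2. Taking 3 counts in each control library as the highest level that a count of 0 allows, COL20A1 was at least 4.17-fold higher in ZM11-kd1 and at least 14.0-fold higher in ZM11-kd2.

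Of the 5 beaded filament, anchoring and other network collagens, COL7A1 and COL6A1 were called in opposite ways in the knockdowns, COL28A1 fell in both, COL6A2 fell in ZM11-kd2 and COL26A1 was called in neither. COL7A1 (chromosome 3, 48564073 to 48595329) forms the fibrils that anchor epithelia to the tissue beneath. It was at 95.8 and 94.8 CPM in control, 146.8 and 144.7 in ZM11-kd1, and 69.6 and 66.1 in ZM11-kd2. The libraries of ZM11-kd1 thus lay above and those of ZM11-kd2 below the controls, with log2 fold changes of 0.61 ± 0.05 (SE, edgeR adjusted p = 8.3e-08) and -0.49 ± 0.06 (SE, edgeR adjusted p = 1.6e-06). The call in ZM11-kd2 was lost after the length and GC correction (-0.06, edgeR adjusted p = 0.321). COL6A1, a chain of the microfibrils that link cells to the surrounding matrix, was at 29.7 and 31.0 CPM in control, 49.6 and 51.8 in ZM11-kd1, and 24.2 and 21.4 in ZM11-kd2. Its log2 fold changes were 0.74 ± 0.08 (SE, edgeR adjusted p = 5.62e-07) and -0.41 ± 0.08 (SE, edgeR adjusted p = 0.000352), and both calls held in all 14 alternative settings. COL6A2, its partner in the same trimer, was called lower only in ZM11-kd2 (-2.15, edgeR adjusted p = 0.00241), the group through which it did not pass the filter and where its 5 and 16 counts are few, and without control replicate 2 that call was lost (-1.49, edgeR adjusted p = 0.0693).

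COL28A1 fell in both knockdowns, from 11.1 and 13.3 CPM in control to 8.45 and 7.57 in ZM11-kd1 and 4.84 and 5.61 in ZM11-kd2, though the call in ZM11-kd1 was lost after the length and GC correction (-0.28, edgeR adjusted p = 0.067). COL26A1 was called in neither, with log2 fold changes of -0.39 and 0.14. COL18A1, the multiplexin from whose end the endostatin fragment is cut, was at 2.01 and 2.09 CPM in control, 2.91 and 3.85 in ZM11-kd1, and 0.308 and 0.496 in ZM11-kd2. The fall in ZM11-kd2 was 5.08-fold. The call for a rise in ZM11-kd1 (0.72 ± 0.25, SE, edgeR adjusted p = 0.0187) was lost without control replicate 1 (0.68, edgeR adjusted p = 0.0903), without control replicate 2 (0.75, edgeR adjusted p = 0.0691) and without ZM11-kd1 replicate 2 (0.51, edgeR adjusted p = 0.16), with the DESeq2 Wald test and with library totals alone (0.36, edgeR adjusted p = 0.204). Exons of SLC19A1 on the opposite strand cover 18.5% of the exonic length of COL18A1, and SLC19A1 had more counts, from 405 to 630 per library, so reads of the shared part cannot be assigned here. COL25A1, a transmembrane collagen, was at 4.96 and 3.83 CPM in control, 0.765 and 0.304 in ZM11-kd1, and 0.476 and 0.613 in ZM11-kd2, which was a 7.99-fold and an 8.04-fold fall, the first in the group through which it did not pass the filter.

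Summed over the 27 collagen genes, the level per length was 85.2 and 85.8 CPM per kb in control, 63.3 and 64.0 in ZM11-kd1, and 31.6 and 31.7 in ZM11-kd2. COL9A2 made up 42.3% and 42.0% of this sum in control, 18.0% and 17.9% in ZM11-kd1, and 4.49% and 4.53% in ZM11-kd2. Without COL9A2, a sum taken after its values were seen, the collagens stood at 49.2 and 49.7 CPM per kb in control, 51.9 and 52.6 in ZM11-kd1, and 30.2 and 30.2 in ZM11-kd2. Without this gene both ZM11-kd1 libraries thus lay just above the controls, and both ZM11-kd2 libraries below them. The margin in ZM11-kd1 is smaller than the gap between TMM factors (1.134 and 1.124 in control, 0.890 and 0.876 in ZM11-kd1). That order therefore depends on the normalization. In these bulk libraries, fewer cells with a transcript and less of it per cell cannot be told apart. VIM and the summed list of fibroblast and smooth muscle markers were highest in ZM11-kd1, as COL1A1 was, and their part in the collagen values was not tested.

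**Figure D3:**
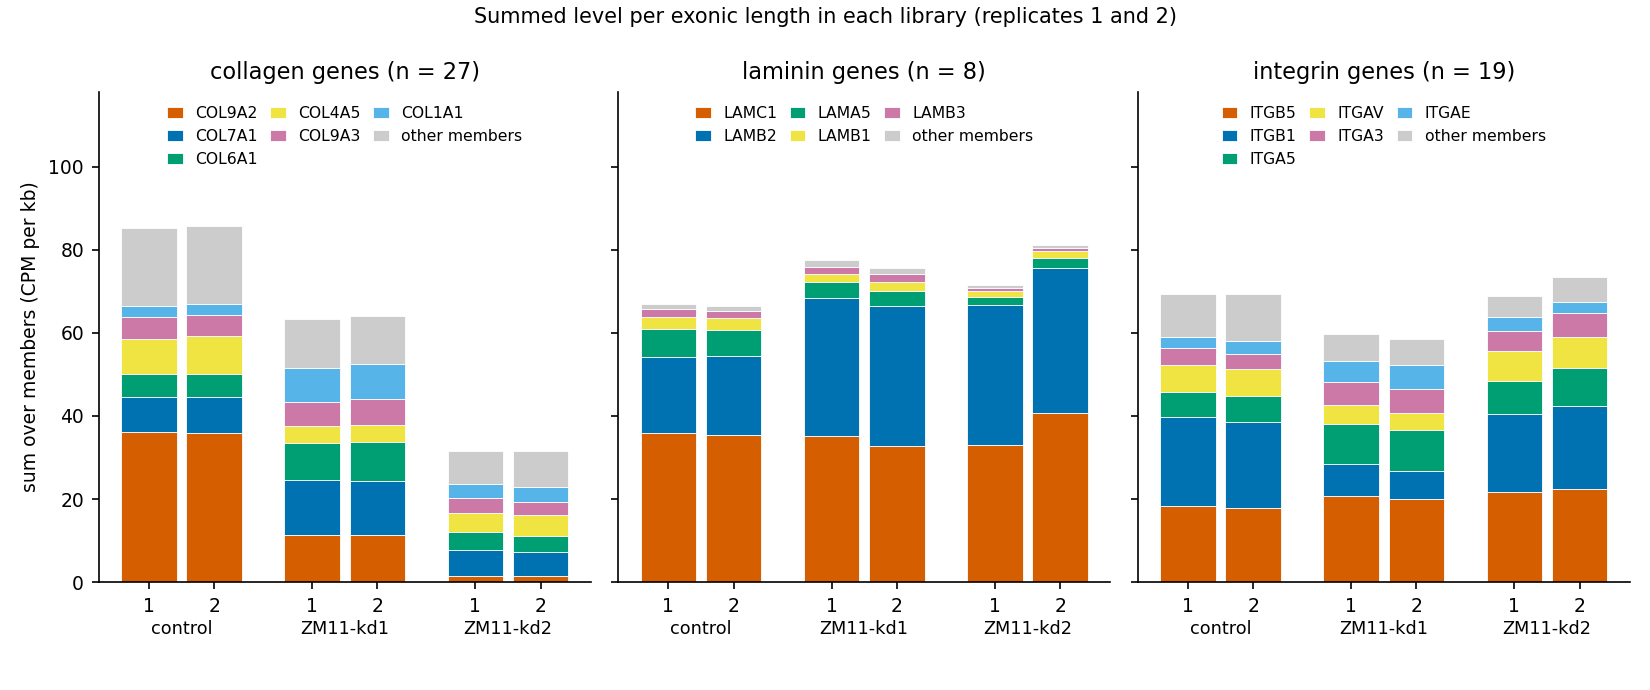
Stacked bars give the summed level per exonic length (CPM per kb) of 27 collagen, 8 laminin and 19 integrin genes in each of the 6 libraries, with the genes of highest level in color and the others in gray. The collagen sum goes from 85.2 and 85.8 in control to 31.6 and 31.7 in ZM11-kd2, with COL9A2 the largest part of the difference, while the laminin and integrin sums stay between 58.5 and 81.2 with other proportions of their chains.

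The laminins changed in composition more than in sum. Per length, the 8 genes summed to 66.9 and 66.5 CPM per kb in control, 77.5 and 75.6 in ZM11-kd1, and 71.5 and 81.2 in ZM11-kd2. LAMC1 (chromosome 1, 183023420 to 183145592), the gamma chain of most laminins, was at 302.0 and 299.6 CPM in control, 296.4 and 277.4 in ZM11-kd1, and 278.4 and 343.8 in ZM11-kd2. The ZM11-kd2 libraries lay on either side of the controls, and LAMC1 was called in neither knockdown (log2 fold changes -0.07 and 0.05, edgeR adjusted p = 0.435 and 0.588). With 1 library of ZM11-kd2 left out it was called in either direction, at 0.19 without replicate 1 and at -0.11 without replicate 2. After the length and GC correction LAMC1 was called higher in both knockdowns (0.32 and 0.20, edgeR adjusted p = 0.000187 and 0.00664), and with library totals alone it was called lower in ZM11-kd1 (-0.42, edgeR adjusted p = 0.000239).

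LAMB2 and LAMB1 encode beta chains that can take the same place in a trimer, and they moved apart. LAMB2 (chromosome 3, 49121114 to 49133118) was at 127.4 and 129.7 CPM in control, 228.9 and 231.2 in ZM11-kd1, and 230.7 and 239.2 in ZM11-kd2. All 4 knockdown libraries lay within a narrow band above the controls, with log2 fold changes of 0.84 ± 0.05 (SE, edgeR adjusted p = 1.25e-09) and 0.87 ± 0.05 (SE, edgeR adjusted p = 1.37e-09). LAMB1 was at 53.9 and 53.2 CPM in control, 38.3 and 37.8 in ZM11-kd1, and 27.9 and 28.2 in ZM11-kd2. It fell by 0.49 and 0.93 on the log2 scale, though after the length and GC correction it was called higher in ZM11-kd1 (0.16, edgeR adjusted p = 0.0326). The log2 ratio of LAMB2 to LAMB1 counts, a pair taken after the values were seen, was 1.24 and 1.29 in control, 2.58 and 2.61 in ZM11-kd1, and 3.05 and 3.08 in ZM11-kd2.

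Both alpha chains among the 54, LAMA5 and LAMA3, fell in both knockdowns. LAMA5 (chromosome 20, 62307955 to 62367312), the broadly expressed alpha chain of epithelial basement membranes, was at 93.1 and 91.3 CPM in control, 53.2 and 53.2 in ZM11-kd1, and 29.5 and 37.0 in ZM11-kd2. The log2 fold changes were -0.79 ± 0.08 (SE, edgeR adjusted p = 5.28e-07) and -1.47 ± 0.09 (SE, edgeR adjusted p = 1.19e-09). LAMA3 and LAMB3 encode chains of an epithelial laminin that hemidesmosomes hold on to. LAMA3 was at 6.11 and 5.67 CPM in control, 0.942 and 0.743 in ZM11-kd1, and 1.76 and 2.31 in ZM11-kd2, a 6.92-fold and a 2.89-fold fall. LAMB3 was at 9.20 and 7.86 CPM in control, 7.95 and 9.09 in ZM11-kd1, and 3.02 and 3.65 in ZM11-kd2. The groups overlapped for LAMB3 in ZM11-kd1, with a log2 fold change of -0.00 ± 0.15 (SE, edgeR adjusted p = 0.982), and it fell by 1.35 in ZM11-kd2. With library totals alone LAMB3 was called lower in ZM11-kd1 as well (-0.36, edgeR adjusted p = 0.0392). The log2 ratio of LAMA3 to LAMB3 counts was -0.59 and -0.47 in control, -3.08 and -3.61 in ZM11-kd1, and -0.78 and -0.66 in ZM11-kd2. LAMC3 had 57 and 65 counts in control, 1 and 4 in ZM11-kd1, and 0 and 5 in ZM11-kd2, and like COL21A1 it passed the filter through its controls alone. LAMA1, LAMA2, LAMA4 and LAMB4 each held under 100 counts in all.

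**Figure D4:**
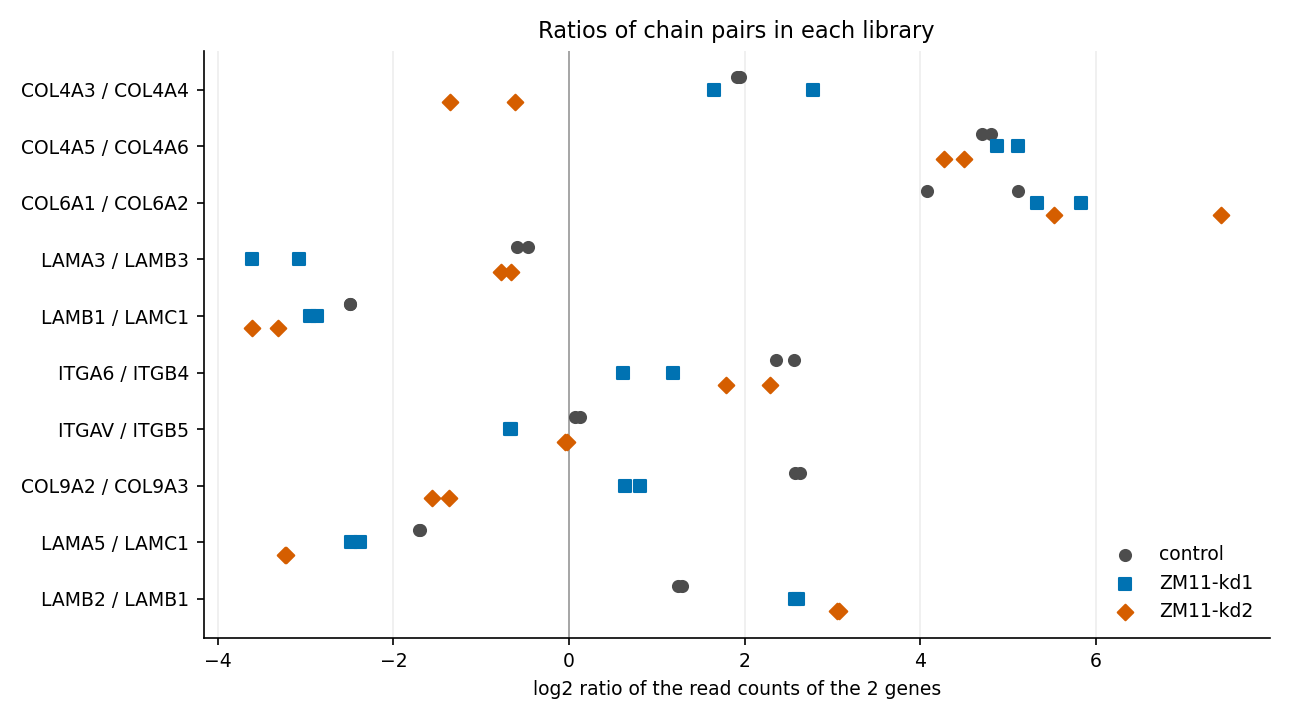
Log2 ratios of the read counts of 2 chains in each library, with circles for control, squares for ZM11-kd1 and diamonds for ZM11-kd2; the last 3 pairs were chosen after the values were seen. The ratio COL9A2 / COL9A3 steps from 2.58 and 2.63 to -1.56 and -1.37, COL4A3 / COL4A4 is below 0 in ZM11-kd2 alone, and LAMA3 / LAMB3 is lowest in ZM11-kd1.

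Integrin alpha chains that bind collagen differed in direction. ITGA1 (chromosome 5, 52787916 to 52959209), a receptor chain for collagen IV, was at 35.1 and 37.8 CPM in control, 4.003 and 4.324 in ZM11-kd1, and 4.42 and 3.85 in ZM11-kd2. The knockdown libraries overlapped each other and lay far below the controls, with log2 fold changes of -3.13 ± 0.12 (SE, edgeR adjusted p = 6.39e-12) and -3.14 ± 0.11 (SE, edgeR adjusted p = 1e-11). PELO and RPL17P21 overlap exons of ITGA1 on the same strand, together over 5.77% of its exonic length, and PELO rose in both knockdowns (log2 fold changes 1.29 and 1.43). ITGA2, a receptor chain for fibrillar collagen, was at 26.2 and 29.1 CPM in control, 16.3 and 13.1 in ZM11-kd1, and 12.04 and 14.48 in ZM11-kd2, which were falls of 0.91 and 1.06 on the log2 scale. ITGA10, known from cartilage, was at 1.02 and 1.80 CPM in control and 1.62 and 1.25 in ZM11-kd1, where the groups overlapped. In ZM11-kd2 it was at 6.10 and 7.56 CPM, a 4.82-fold rise (log2 fold change 2.27 ± 0.25, SE, edgeR adjusted p = 1.23e-06).

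Of the alpha chains that bind laminin, ITGA3 rose and ITGA6 and ITGA7 fell. ITGA3 was at 39.2 and 35.1 CPM in control, 53.9 and 56.7 in ZM11-kd1, and 48.2 and 56.2 in ZM11-kd2, a rise of 0.57 and 0.49 on the log2 scale. ITGA6, which pairs with ITGB4 in hemidesmosomes, was at 5.72 and 6.09 CPM in control, 3.86 and 3.75 in ZM11-kd1, and 3.56 and 3.33 in ZM11-kd2. The fall of ITGA6 was 1.55-fold and 1.71-fold, and that in ZM11-kd1 was lost after the length and GC correction (-0.30, edgeR adjusted p = 0.102). ITGA7, the main laminin receptor chain of muscle, was at 11.3 and 12.2 CPM in control, 8.42 and 10.1 in ZM11-kd1, and 5.79 and 5.02 in ZM11-kd2. Its fall of 0.35 in ZM11-kd1 on the log2 scale was lost without control replicate 2 (-0.29, edgeR adjusted p = 0.148) or ZM11-kd1 replicate 1 (-0.22, edgeR adjusted p = 0.232), with the DESeq2 Wald test and after the length and GC correction (-0.23, edgeR adjusted p = 0.128), while that of 1.12 in ZM11-kd2 held in all 14 alternative settings.

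Of the alpha chains that read the RGD motif, ITGA5 rose and ITGA2B fell in both knockdowns, and ITGAV was split between them. ITGAV (chromosome 2, 186590010 to 186680901), the alpha chain of vitronectin receptors, was at 125.0 and 127.2 CPM in control, 85.6 and 82.5 in ZM11-kd1, and 139.9 and 142.0 in ZM11-kd2. ITGAV was the single integrin called in opposite ways, with log2 fold changes of -0.58 ± 0.05 (SE, edgeR adjusted p = 1.17e-07) and 0.16 ± 0.05 (SE, edgeR adjusted p = 0.0127). The rise in ZM11-kd2 was lost without control replicate 1 (0.15, edgeR adjusted p = 0.113) or 2 (0.17, edgeR adjusted p = 0.0647) and with library totals alone (-0.01), and the fall in ZM11-kd1 turned to 0.07 after the length and GC correction. ITGA5, the fibronectin receptor chain, was at 45.1 and 44.8 CPM in control, 72.4 and 71.5 in ZM11-kd1, and 57.3 and 69.0 in ZM11-kd2. It rose by 0.68 ± 0.08 (SE) and 0.49 ± 0.08 (SE) on the log2 scale. ITGA2B, the alpha chain of the platelet fibrinogen receptor, was at 2.10 and 2.87 CPM in control, 0.618 and 0.676 in ZM11-kd1, and 0.616 and 1.02 in ZM11-kd2.

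ITGA4 and ITGA9 are related chains that bind VCAM1, tenascin or fibronectin sites. ITGA4 was at 1.48 and 1.80 CPM in control, 1.33 and 1.42 in ZM11-kd1, and 0.196 and 0.117 in ZM11-kd2. It was 10.2-fold lower in ZM11-kd2, the group through which it did not pass the filter, and was not called in ZM11-kd1 (-0.26, edgeR adjusted p = 0.468), and the overlapping gene CERKL, with at most 4 counts in a library, covers 26.4% of its exonic length. ITGA9 had 32 and 31 counts in control, 4 and 18 in ZM11-kd1, and 39 and 20 in ZM11-kd2. Its call in ZM11-kd1 (-1.54, edgeR adjusted p = 0.0258), likewise the group that did not admit it, was lost without either control library (-1.50 and -1.57) or ZM11-kd1 replicate 1 (-0.75) and after the length and GC correction (-1.17, edgeR adjusted p = 0.0775), and the antisense gene ITGA9-AS1 had 304 to 419 counts per library.

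The alpha chains known from leukocytes were ITGAE, which rose in ZM11-kd1, and ITGAL, which was called lower in ZM11-kd2. ITGAE, known from T cells in epithelia, was at 18.3 and 21.2 CPM in control, 33.6 and 37.7 in ZM11-kd1, and 21.4 and 18.7 in ZM11-kd2. It rose 1.80-fold in ZM11-kd1 (edgeR adjusted p = 2.01e-06), and in ZM11-kd2 the groups overlapped (log2 fold change 0.02). Its partner ITGB7 had 99 counts over all libraries, and the opposite-strand gene HASPIN within ITGAE fell in both knockdowns (log2 fold changes -4.72 and -2.79). ITGAL was at 9.92 and 8.95 CPM in control, 11.01 and 11.18 in ZM11-kd1, and 6.91 and 7.94 in ZM11-kd2. It was called lower in ZM11-kd2 (-0.35, edgeR adjusted p = 0.0241), a call lost without control replicate 1 (-0.27, edgeR adjusted p = 0.163) or ZM11-kd2 replicate 1 (-0.25, edgeR adjusted p = 0.125) and with the DESeq2 Wald test. After the length and GC correction ITGAL was at -0.06 in ZM11-kd2 (edgeR adjusted p = 0.645) and was called higher in ZM11-kd1 (0.68, edgeR adjusted p = 5.79e-05). ITGB2, the partner of ITGAL, lay between 0.504 and 1.68 CPM and was called in neither knockdown. Of 8 leukocyte markers, 5 passed the filter, and 2 were called higher and 1 lower in ZM11-kd1, and 2 higher and 2 lower in ZM11-kd2. CD3E had no counts, PTPRC was at 0.241 to 0.339 CPM in the group means, and CD14 went from 0.526 and 0.869 CPM in control to 1.27 and 1.18 in ZM11-kd1 and 3.28 and 2.69 in ZM11-kd2. Their part in the values of ITGAE and ITGAL was not tested.

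Integrin beta chains were dominated by ITGB1 and ITGB5. ITGB1 (chromosome 10, 32887273 to 33005792), the common partner of most alpha chains above, was at 310.9 and 304.0 CPM in control, 110.3 and 97.8 in ZM11-kd1, and 274.3 and 290.6 in ZM11-kd2. It fell 2.95-fold in ZM11-kd1 (log2 fold change -1.56 ± 0.06, SE, edgeR adjusted p = 1.49e-11). In ZM11-kd2 both libraries lay just below the controls with a log2 fold change of -0.12 ± 0.06 (SE, edgeR adjusted p = 0.0808), which was called lower without ZM11-kd2 replicate 2 (-0.16, edgeR adjusted p = 0.00623), with at least 10 counts in every library (-0.16, edgeR adjusted p = 0.0258) and with library totals alone (-0.29), and higher after the length and GC correction (0.13, edgeR adjusted p = 0.0318). The difference between the knockdowns was 1.44 ± 0.06 (SE, edgeR adjusted p = 1.11e-10). ITGB5, a partner of ITGAV, was at 119.5 and 116.0 CPM in control, 135.6 and 131.0 in ZM11-kd1, and 142.0 and 145.9 in ZM11-kd2. Its rises were small, at 0.18 and 0.29 on the log2 scale, and that in ZM11-kd1 was lost without control replicate 2 (0.16, edgeR adjusted p = 0.0911) or ZM11-kd1 replicate 1 (0.16, edgeR adjusted p = 0.0713) and turned to -0.18 with library totals alone. The call in ZM11-kd2 was also lost with library totals alone (0.12, edgeR adjusted p = 0.064).

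ITGB8, a partner of ITGAV that activates latent TGF-beta, was at 11.11 and 11.04 CPM in control, 5.68 and 7.06 in ZM11-kd1, and 0.588 and 0.584 in ZM11-kd2. ITGB8 fell 1.74-fold in ZM11-kd1 and 18.8-fold in ZM11-kd2, with a difference between the knockdowns of -3.43 ± 0.22 (SE, edgeR adjusted p = 4.29e-09). The fall in ZM11-kd1 was lost after the length and GC correction (-0.10, edgeR adjusted p = 0.528). ITGB4, the hemidesmosome chain, was called only in ZM11-kd1 (0.97, edgeR adjusted p = 0.0142), and that call was lost without control replicate 1 (1.02, edgeR adjusted p = 0.0514), without control replicate 2 (0.91, edgeR adjusted p = 0.0758) without ZM11-kd1 replicate 1 (0.63, edgeR adjusted p = 0.17) and with library totals alone (0.62, edgeR adjusted p = 0.0996). ITGB6 lay under 1 CPM in every library and was called in neither knockdown, though without ZM11-kd2 replicate 2 it was called lower in ZM11-kd2 (-1.81, edgeR adjusted p = 0.0421). ITGB5 made up 44.9% and 44.7% of the beta chain level per length in control, 70.5% and 72.4% in ZM11-kd1, and 53.3% and 52.4% in ZM11-kd2. ITGB1 went from 52.3% and 52.4% to 25.6% and 24.2%, and to 46.1% and 46.7%. The symbol ITGB3BP also begins like an integrin gene, but it encodes a centromere protein and was left out.

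The genes that act on collagens, laminins and integrins were examined as 6 lists, whose counts are to be read against the 38.2% of all genes called higher and 39.8% called lower in ZM11-kd1, and the 36.5% and 36.9% in ZM11-kd2. Of 25 genes for collagen synthesis and export, 13 rose and 5 fell in ZM11-kd1, and 12 rose and 7 fell in ZM11-kd2, with median log2 fold changes of 0.15 and 0.19, beside -0.03 and -0.03 for all genes. In either direction 18 and 19 of the 25 were called, a share near the 78.0% and 73.4% of all genes. PLOD2, a lysyl hydroxylase of collagen, fell from 86.0 to 14.7 and 29.3 CPM (group means, log2 fold changes -2.54 and -1.55). CREB3L1, a transcription factor that activates collagen genes, rose from 4.10 to 7.02 and 44.7 CPM (0.77 and 3.44). Of 11 measured genes for collagen processing and cross-linking, 3 rose and 5 fell in ZM11-kd1, and 2 rose and 5 fell in ZM11-kd2, with 72.7% and 63.6% called and medians of -0.45 and -0.07. FURIN, a proprotein convertase, rose from 121.1 to 561.4 and 346.3 CPM (2.21 and 1.52), and LOXL1, a cross-linking oxidase, fell by 1.47 and 2.12 on the log2 scale.

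Of 18 measured proteins of the matrix and basement membrane other than collagens and laminins, 11 fell in each knockdown, while 3 rose in ZM11-kd1 and 5 in ZM11-kd2 (77.8% and 88.9% called, medians -0.85 and -1.15). TNC, a tenascin, fell from 253.2 to 44.4 and 25.7 CPM (-2.51 and -3.30), and FBLN1, a fibulin, fell by 3.05 and 3.20 on the log2 scale. Among 15 matrix receptors that are not integrins, 9 rose and 5 fell in ZM11-kd1, whereas 3 rose and 10 fell in ZM11-kd2, and 6 of the 15 were called in opposite ways, beside 9.10% of all genes (93.3% and 86.7% called against control, medians 0.24 and -0.36). CD81, a tetraspanin, rose in both (1.83 and 0.87), and SDC4, a syndecan that acts with integrins, fell in both (-2.45 and -1.75). Among 37 measured genes of integrin adhesion and signalling, 14 rose and 20 fell in ZM11-kd1, and 15 rose and 14 fell in ZM11-kd2 (91.9% and 78.4% called, medians -0.29 and -0.10). FERMT1, a kindlin that activates integrins, fell from 19.2 to 4.85 and 4.39 CPM (-1.98 and -2.13), and TNS3, a tensin, fell by 2.81 and 2.78 on the log2 scale. Of 17 measured matrix proteases and their inhibitors, 3 rose and 8 fell in ZM11-kd1, and 6 rose and 8 fell in ZM11-kd2 (64.7% and 82.4% called, medians -0.47 and -0.12). ADAM9, a membrane protease that binds integrins, fell from 184.3 to 14.9 and 122.0 CPM (-3.62 and -0.60), and MMP10, a stromelysin, rose from 3.35 to 5.27 and 46.5 CPM (0.65 and 3.79), with the call in ZM11-kd1 lost after the length and GC correction (0.06) and with library totals alone (0.30).

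The fold changes of all genes were related to gene length and GC content, which bears on families of long genes. Across 15950 genes, Spearman's rho between fold change and exonic length was -0.287 in ZM11-kd1 and -0.133 in ZM11-kd2, and with GC content it was 0.189 and -0.030, given as descriptions, since genes are not independent replicates. With library totals in place of TMM, the median log2 fold change of all genes was -0.38 in ZM11-kd1 and -0.20 in ZM11-kd2, and the members called were then 14 higher and 29 lower in ZM11-kd1 and 9 higher and 33 lower in ZM11-kd2. Of all genes, 27.8% were then called higher and 51.0% lower in ZM11-kd1, and 30.1% higher and 43.7% lower in ZM11-kd2. After the length and GC correction the members called were 21 higher and 20 lower in ZM11-kd1 and 13 higher and 27 lower in ZM11-kd2, beside 38.8% higher and 38.0% lower, and 38.2% higher and 35.7% lower, of all genes.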

How the data were processed

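RNA from 6 libraries of 22Rv1 cells (2 control, 2 ZM11-kd1, 2 ZM11-kd2) was read from 1 table of whole-number counts per gene symbol, which the authors deposited without normalization. The submitters' processing notes name FastQC 0.11.9, STAR 2.7.9a, HTSeq 0.13.5 and the build hg38, and the study describes trimming of adapters before alignment. The annotation, any use of strand and the treatment of multimapped reads are not given in the sources used here.

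Total counts of 26844128 to 38193748 per library set the precision. Counts were fitted with edgeR 4.0.16 (TMM, filterByExpr, quasi-likelihood test, 1 fit of all 6 libraries), 16510 genes were tested, and genes with a Benjamini-Hochberg adjusted p under 0.05 were called. SE is the log2 fold change divided by the root of F. The fit was also run on simulated counts in which few genes changed. That run does not cover libraries where most genes are called. Coordinates and exonic lengths are from GENCODE on hg38. Values per library were given for the collagen IV chains, the 2 members of each class with the highest mean CPM, the 2 of largest change among those with 1 direction in both knockdowns, and those with opposite calls. Other members were added with their values known. From each other list the 2 genes of largest change with calls in 1 direction were named, at a mean of at least 1 log2 CPM. The members, the lists and the tests were chosen with earlier results of these data known. Alternatives were library totals alone, DESeq2 1.42.0 size factors and Wald test, other filters on counts, a replicate block, a length and GC correction, fits of the compared groups only and each library left out. The values of 1 member, which stays in the counts and sums, are not reported here.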

Additional observations from a re-analysis of the deposited data

Results flagged for a closer look

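The 6 collagen and integrin genes here were taken up because their change against control was called higher in one knockdown and lower in the other, and because the difference between the knockdowns passed the edgeR test (adjusted p under 0.05). The log2 difference of ZM11-kd2 from ZM11-kd1 was -1.10 for COL7A1, -1.15 for COL6A1, -0.81 for COL9A3, -2.54 for COL24A1, -3.06 for COL18A1 and 0.75 for ITGAV. Of all genes tested, 9.10% were called in opposite ways. For COL24A1 and COL6A1 both calls held in all 14 alternative settings. For COL9A3, COL18A1 and ITGAV 1 of the 2 calls was lost when single libraries were left out, and for COL7A1 the fall in ZM11-kd2 was lost after the length and GC correction. After that correction the other call of ITGAV, its fall in ZM11-kd1, was lost too (0.07, edgeR adjusted p = 0.196). COL9A3 was then called lower in ZM11-kd1 (-0.24, edgeR adjusted p = 0.0172). Groups of 2 libraries are too few to look for single libraries that stand apart.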

How the results depend on the processing

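Calls were recomputed in 14 alternative settings for 45 members, and in 12 or 13 for the 9 that a stricter filter or a left-out library removed from a test. Of 54 members, 39 kept their call in each setting that tested them in ZM11-kd1, 43 in ZM11-kd2 and 36 between the knockdowns. Where a call was lost or a direction turned, the cause was not tested.

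With a member limit of 1000 counts, by construction fewer genes entered, and of 28 members 25 were called in ZM11-kd1 (12 higher, 13 lower), 24 in ZM11-kd2 (16 lower), 21 between the knockdowns (4 higher, 17 lower) and 18 the same way in both, or 89.3%, 85.7% and 75.0% called beside 78.0%, 73.4% and 68.8% of all genes. The shares of all genes carry no limit of 1000 counts, so the 2 sets are unlike. With at least 10 counts in every library, 82.0%, 77.3% and 74.8% of all genes were called. The members called in opposite ways numbered 6, but 3 with library totals alone and 3 to 7 with 1 library left out, the 3 being without control replicate 1 or control replicate 2. The genes of collagen processing and cross-linking called in ZM11-kd1 numbered 5 to 9 with 1 library left out, with 5 without ZM11-kd1 replicate 2.

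Family medians (log2) moved as follows. With library totals alone they were -0.74 and -0.86 for collagens, -0.63 and -1.31 for laminins, and -0.70 and -0.52 for integrins in ZM11-kd1 and ZM11-kd2. After the length and GC correction they were -0.45 for collagens in ZM11-kd2, -0.05 and -0.70 for laminins, and 0.07 and -0.12 for integrins. With at least 10 counts in every library they were -0.13 for collagens in ZM11-kd1 (-0.39 as reported), -0.11 and -0.97 for laminins and -0.20 for integrins in ZM11-kd1. With 1 library left out, collagens ranged from -0.73 to -0.10 in ZM11-kd1 (-0.73 without control replicate 1) and from -0.94 to -0.69 in ZM11-kd2, and integrins from -0.55 (without ZM11-kd2 replicate 2) to -0.29 in ZM11-kd2.

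Directions turned as follows. With library totals alone, log2 fold changes in ZM11-kd1 were -0.14 for COL9A3, -0.18 for ITGB5, -0.12 for ITGAL and -0.32 for ITGA10, and in ZM11-kd2 -0.08 for COL9A1, -0.04 for COL26A1, -0.01 for ITGAV, -0.15 for ITGAE and -0.12 for LAMC1. After the length and GC correction they were -0.24 for COL9A3, 0.07 for ITGAV, 0.32 for ITGA4, 0.32 for LAMC1 and 0.16 for LAMB1 in ZM11-kd1, and 0.01 for COL4A4 and 0.13 for ITGB1 in ZM11-kd2. With at least 10 counts in every library ITGAE was at -0.02 in ZM11-kd2 and ITGA10 at -0.01 in ZM11-kd1. LAMB3 in ZM11-kd1 was at 0.00 with DESeq2 size factors and with the DESeq2 Wald test. With 1 library left out, ranges that cross 0 in ZM11-kd1 were -0.77 to 0.33 for COL6A2, -1.73 to 0.24 for ITGB6, -0.33 to 0.50 for ITGA10 and -0.12 to 0.11 for LAMB3, and in ZM11-kd2 -0.12 to 0.27 for COL9A1, -0.62 to 0.62 for COL26A1, -0.08 to 0.13 for ITGAE, -0.81 to 0.10 for ITGA9 and -0.11 to 0.19 for LAMC1.

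Libraries with the same replicate number did not deviate together (correlations of 0.006, -0.026 and -0.044), so the numbers do not pair them. With the replicate number as a block, 44 members were called in ZM11-kd1, 41 in ZM11-kd2 and 35 between the knockdowns, beside 76.0%, 70.8% and 66.5% of all genes, with 30 called the same way and 5 in opposite ways.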
